A study of Mus musculus with 6 samples.

Results

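The interleukin genes of this series are the cytokines named interleukin, their receptor chains and their soluble antagonists. Members were all probe sets whose single platform gene symbol starts with Il followed by a digit, which gave 55 of the 12488 probe sets on the array, for 45 of the 8252 genes with such a single symbol. Lung RNA was profiled on 6 Affymetrix arrays from mice labelled C57, DBA and ICR (an outbred stock), with 1 control and 1 smoked array per strain. Smoked mice inhaled the smoke of 3 cigarettes a day on 5 days a week for 4 weeks. The labels give each array as mouse 1 of its group, and the sources used here do not give age, sex, substrain or pooling. No allele, transgene or second agent is named for any group. Each strain thus gave 1 pair, and the 3 pairs were the replicates of the smoke effect.

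Interleukins are secreted signals by which leukocytes, epithelium and endothelium direct inflammation. The interleukin 1 family acts early: Il1a, Il1b and Il18 signal through paired receptor chains to NF-kB, and Il1rn, the decoy receptor Il1r2 and the binding protein Il18bp hold them back. Il1b and Il18 are made as inactive precursors that caspase-1 cleaves, so message and active cytokine are regulated apart. Most other interleukins signal through JAK kinases and STAT factors, with shared chains such as Il2rg and Il6st. In the lung, alveolar macrophages, neutrophils and airway epithelium are known sources of interleukin 1 family cytokines.

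Levels are log2 of the deposited intensity plus 8.05 (the 20th percentile of all values), quantile normalized between arrays, unless a deposited intensity is named. Median deposited intensity ran from 25.9 (ICR smoked) to 84.8 (DBA smoked), and the 3' to 5' ratio of the beta-actin control was 4.75 on the ICR smoked array against 1.46 to 2.75 on the others. The DBA control array stood apart in 12 neutrophil markers, whose summed normalized intensity was 16648 there and 1128 to 3518 on the other 5 arrays. Of 5 measured lung epithelial markers, Sftpc, Sftpb, Scgb1a1 and Ager passed the filter on low signal and Sftpd did not.

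The array measured receptors more often than ligands above that filter. The filter kept the 7453 of 12422 probe sets outside the control set whose mean level exceeded the 40th percentile. Of 29 probe sets for receptors and binding proteins 17 were kept, for 14 of 24 genes. Of 26 probe sets for ligands and antagonists 5 were kept, for 5 of 21 genes. These were Il1a, Il1b, Il18, Il1rn and Il16, a chemoattractant of CD4 cells. The 26 include 2 control probe sets, for Il4 and Il10, which were left out whatever their level. The other 16 ligand genes had no probe set kept, namely the T cell cytokines Il2, Il3, Il4, Il5, Il9, Il13 and Il17a, the regulatory Il10, the lymphocyte growth factors Il7 and Il15, the Il12 subunits Il12a and Il12b, and Il6, Il11, Il17d and Il1f5. The 10 receptor genes with no probe set kept were Il2ra, Il2rb, Il5ra, Il9r, Il10ra, Il12rb1, Il12rb2, Il13ra2, Il18rap and Il1rap. Where a gene has several probe sets they are numbered by their identifiers, so that Il6st, Il1r2, Il17ra and Il4ra have a probe set 1 and a probe set 2. Deposited Il6 intensity, for example, was between 0.911 and 8.01 on the 6 arrays, under the added constant throughout. Of the 22 kept probe sets none read below that constant on any array, and of the 33 others 11 did so on all 6. Differences of those low readings have no firm size. In whole lung, fewer cells of a type and less message per cell cannot be told apart.

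Between strains, Il1b and Il18 were higher in ICR than in C57 lung, whatever the exposure. Il1b, the main secreted inflammatory cytokine of the family, had levels, always control before smoked, of 6.02 and 5.46 in C57, 6.89 and 5.76 in DBA, and 7.81 and 7.14 in ICR. Both ICR arrays were above all 4 others, and the DBA pair overlapped the C57 pair. The fitted difference between ICR and C57 was 3.33-fold (log2 1.73, SE 0.27, n = 2 arrays per strain, limma adjusted p = 0.0163). Il18, which drives interferon gamma production by T and NK cells, had levels of 4.82 and 5.22 in C57, 5.26 and 5.84 in DBA, and 6.63 and 6.46 in ICR, in the same order. The strains did not overlap for Il18. Its difference between ICR and C57 was 2.88-fold (log2 1.52, SE 0.32, n = 2 arrays per strain, limma adjusted p = 0.0455). These were the 2 of 22 tested members called in ICR against C57, both higher, where 2.29% of all tested probe sets were called in either direction, 0.926% higher and 1.37% lower. At an unadjusted p under 0.05 there were 4 members, against 18% of all.

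These calls rested on few arrays, on the filter and on the scaling. On simulated data this comparison also gave false calls above the nominal rate. With no filter, the limma adjusted p was 0.0689 for Il1b and 0.137 for Il18. The mean level of Il18 in C57, 5.02, was below the filter level of 5.34, so Il18 was tested only because it was higher in the other strains. Il1b was not called without the C57 control array (limma adjusted p = 0.119), the ICR control array (adjusted p = 0.124) or the ICR smoked array (adjusted p = 0.0647). Il18 was not called without the C57 control array (limma adjusted p = 0.277), the C57 smoked array (0.0915), the ICR control array (0.224) or the ICR smoked array (0.0585). Without scaling, which moved the median probe set to -0.73, the differences were log2 1.10 for Il1b (limma adjusted p = 0.268) and 0.96 for Il18 (adjusted p = 0.296). On that scale the deposited Il1b intensity of 61.3 on the dim ICR smoked array was close to the 61.0 of the C57 control array. Neutrophil markers went both ways between C57 and ICR, with a median difference of log2 0.75 over the 12. Their summed normalized intensity came to 1186 and 1334 for C57, against 3518 and 2536 for ICR, with 0 of 9 tested markers called and 0 at an intensity of 0. S100a8 and S100a9 differed by log2 1.87 and 2.74, and Camp, Ngp and Mmp9 by 0.93, 0.91 and 0.72. Ltf, Elane, Lcn2 and Csf3r differed by -0.68, -0.48, -0.10 and -0.05. Sums of 9 monocyte and macrophage markers came to 3423 and 5027 for C57, against 6738 and 6458 for ICR, with 0 of 6 tested called. Sums of 6 NK cell markers were 156 and 154 for C57, against 342 and 262 for ICR, with 0 of 3 tested called (Gzma log2 1.35, limma adjusted p = 0.0898). Of 4 tested lung epithelial markers, Sftpb, a surfactant protein, was called lower in ICR (log2 -1.0, limma adjusted p = 0.0348). Markers of other tissue were also lower. The 6 skeletal muscle markers summed to 4801 and 3307 for C57, 623 and 223 for DBA and 148 and 164 for ICR. Of these, 5 of 5 tested were called lower both in ICR and in DBA against C57. Myh1 was kept only through C57, with means of 4.34 in DBA and 3.79 in ICR under the filter level. Acta1 and Tnnt3 had ICR means under that level. Stratified epithelium markers summed to 747 and 1468 for C57, 444 and 182 for DBA, and 139 and 249 for ICR. In ICR 2 of 4 tested were called lower. Mt4 was likewise kept only through C57, with means of 4.78 in DBA and 3.72 in ICR. Krt13 had an ICR mean of 4.40, under the filter level. Calls of Myh1 and Mt4 against C57 thus use the strain that let them into the test. The part of these cells and tissues in the strain differences of Il1b, Il18 and other members was not tested.

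Because Il1b and Il18 were called together, the 250 bases before each start site are shown from RefSeq (GRCm38.p6, a C57BL/6J reference), in lower case with motif matches in capitals. The Il1b stretch is chr2:129371140-129371389 on the minus strand and the Il18 stretch is chr9:50554450-50554699 on the plus strand.
Il1b: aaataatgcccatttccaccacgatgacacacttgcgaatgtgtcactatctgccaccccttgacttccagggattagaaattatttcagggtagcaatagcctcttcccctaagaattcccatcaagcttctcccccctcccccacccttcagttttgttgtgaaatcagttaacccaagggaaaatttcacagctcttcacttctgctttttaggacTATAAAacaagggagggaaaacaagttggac
Il18: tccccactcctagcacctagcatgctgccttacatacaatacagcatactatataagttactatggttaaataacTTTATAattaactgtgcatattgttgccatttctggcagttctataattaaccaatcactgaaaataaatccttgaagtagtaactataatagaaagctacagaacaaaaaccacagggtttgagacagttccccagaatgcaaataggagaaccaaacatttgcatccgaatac
Searched on both strands were the TATA box (TATAAA, in 12.4% of 32851 RefSeq promoters of this length), an AP-1 motif (TGANTCA, 6.75%), a C/EBP motif (TTGCNNAA, 9.56%), a STAT motif (TTCNNNGAA, 7.02%) and the NF-kB consensus (7.25%). In this window Il1b held 1 match to the TATA box letters, starting 31 bases before the start site. Il18 held 1 match to these letters on the other strand only, 175 bases before its start site. The letters of the other motifs were in neither window. The ICR and DBA sequences were not analysed here.

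**Figure D1:**
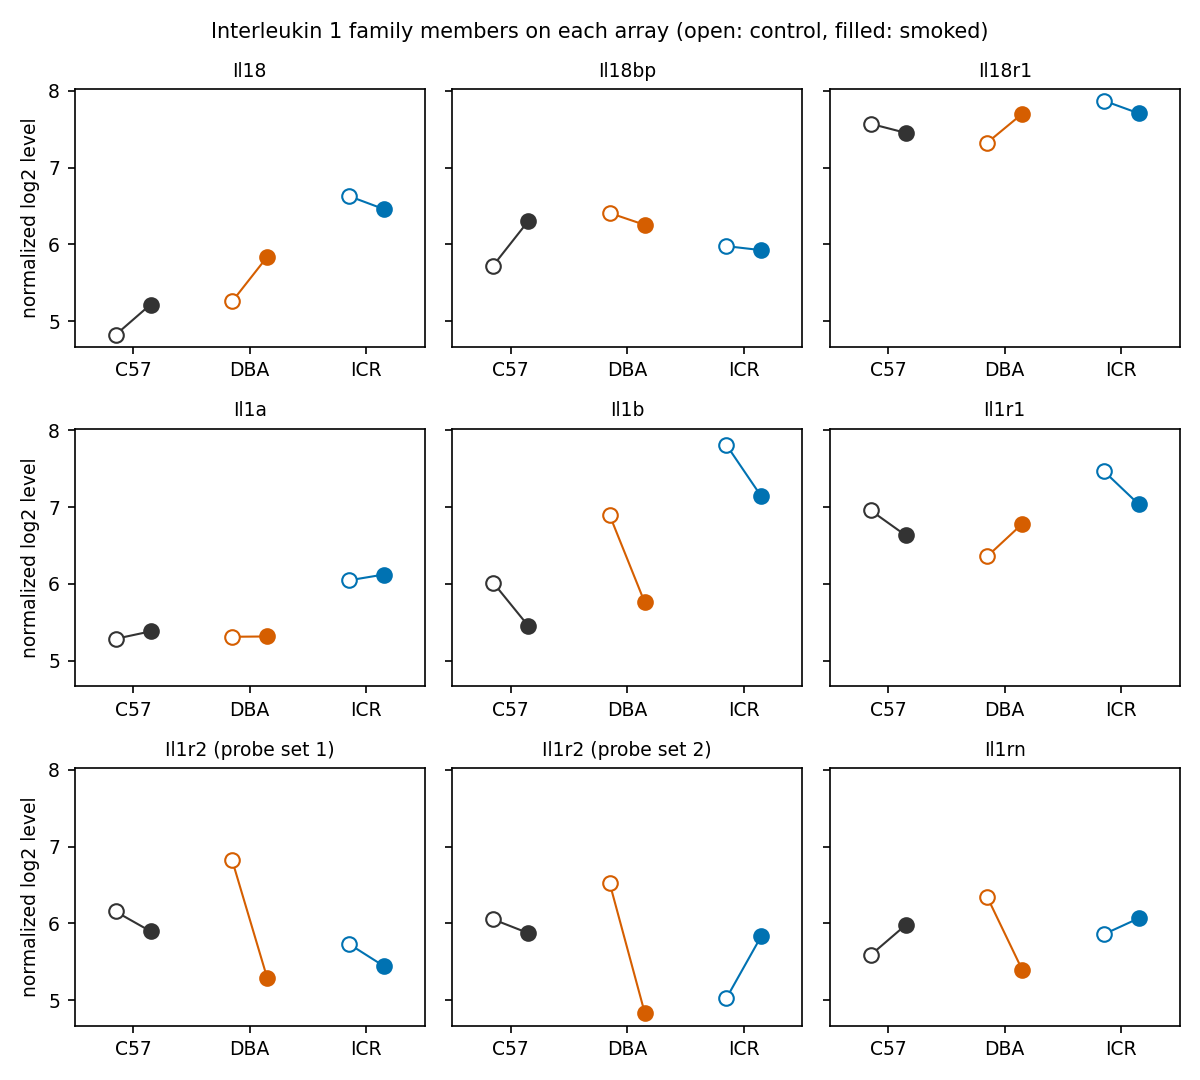
Levels of the 9 kept probe sets of the interleukin 1 family (vertical axis, normalized log2 level) in the 3 strains, 1 array per point, open for control and filled for smoked. Both ICR arrays lie above the other 4 for Il1b, Il18, Il1a, the receptor Il1r1 and, by a narrow margin, the receptor Il18r1. Il1r2, Il1rn and Il18bp are highest on the DBA control array.

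Il1a, the alarmin stored in epithelial cells, had levels of 5.29 and 5.38 in C57, 5.31 and 5.32 in DBA, and 6.05 and 6.12 in ICR. Both ICR arrays were above all others here too, and control and smoked arrays of a strain were within 0.10 of each other. The difference from C57 was log2 0.75 (SE 0.30, limma adjusted p = 0.230), so Il1a was not called. Its mean levels in C57 and DBA were just under the filter level, and it was kept through ICR. The antagonist Il1rn differed between ICR and C57 by log2 0.18 (SE 0.37) and the signalling receptor Il1r1 by 0.46 (SE 0.29), neither called. Il18r1, the receptor chain that binds Il18, differed by 0.28 (SE 0.25), and Il18bp by -0.06 (SE 0.30). Casp1, which encodes the cleaving enzyme, differed by -0.02 (SE 0.32, limma adjusted p = 0.978).

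Il18rap, the second chain of the Il18 receptor, did not pass the filter and was singled out after its values were seen. Its deposited intensity was 3.35 and 3.45 in C57, 40.1 and 33.9 in DBA, and 16.9 and 6.74 in ICR. The C57 readings were below the added constant, as was that of the ICR smoked array, so no fold is given. Normalized, the levels were 3.50 and 3.54 in C57 against 4.44 to 5.32 on the other arrays, and C57 did not overlap the other strains. With no filter, it was not called between strains.

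The 20 other tested members were not called between ICR and C57. Both ICR arrays were above both C57 arrays for 10 of 22 tested members, against 24.7% of all tested probe sets, and below both for 4, against 26.5%. Over all 53 member probe sets outside the control set, the median difference was 0.17, and over all 12422 probe sets it was -0.004. The next largest difference after Il1a was at Il6ra, the ligand-binding chain for Il6, at log2 0.73 (SE 0.26, limma adjusted p = 0.183). Il27ra differed by 0.48 (SE 0.27), and Il4ra (probe set 1), the chain shared by the Il4 and Il13 receptors, by 0.39 (SE 0.24).

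Between DBA and C57, the 3 largest differences were at receptor chains, where receptors and binding proteins made up 17 of the 22 tested probe sets. Limma called 0 of 22 members, where 1.73% of all probe sets were called, 0.872% higher and 0.859% lower. At an unadjusted p under 0.05 there were 3, against 11.5% of all. The first was Il6st, the gp130 chain shared by the Il6 family, at probe set 2, with levels of 5.89 and 6.80 in C57, 7.76 and 7.63 in DBA, and 7.02 and 6.44 in ICR. Both DBA arrays were above all others, by log2 1.35 over C57 (SE 0.35, limma adjusted p = 0.124). Single arrays decided this value: without the C57 control array it was log2 0.71 (limma adjusted p = 1.0). It was called without the C57 smoked array (log2 1.98, limma adjusted p = 0.00605) and without the DBA smoked array (log2 1.49, adjusted p = 0.0156). Probe set 1 of Il6st had levels of 9.38 and 9.47 in C57, 9.37 and 9.59 in DBA, and 9.40 and 9.15 in ICR, and differed by 0.05 (SE 0.22). The 2 probe sets of this gene thus differed in what they showed of the strains.

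Il3ra, the Il3-binding chain found on basophils and plasmacytoid cells, had levels of 6.34 and 5.84 in C57, 7.14 and 6.79 in DBA, and 6.40 and 6.46 in ICR. The DBA arrays were the 2 highest (log2 0.88 over C57, SE 0.27, limma adjusted p = 0.203). Il6ra had levels of 5.97 and 6.19 in C57, 6.98 and 6.87 in DBA, and 6.83 and 6.78 in ICR. Here C57 was below both other strains without overlap (log2 0.85 for DBA over C57, SE 0.26, limma adjusted p = 0.190). DBA arrays were both above C57 for 6 of 22 members, against 23.2% of all tested probe sets, and both below for 1, against 29.3%.

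Between ICR and DBA, limma called 0 of 22 members, where 1.17% of all probe sets were called (0.51% higher, 0.657% lower), and 6 had an unadjusted p under 0.05, against 15.6% of all. Of these 6, Il1b was higher in ICR by log2 1.15 (SE 0.27, limma adjusted p = 0.0978; without scaling 0.19, adjusted p = 0.767), Il18 by 0.996 (SE 0.32), Il1a by 0.77 (SE 0.30), Il1r1 by 0.68 (SE 0.29) and Il13ra1, a signalling chain for Il13, by 0.68 (SE 0.25). Il6st probe set 2 was lower by log2 -0.96 (SE 0.35). Both ICR arrays were above both DBA arrays for 6 of 22 members, against 25% of all, and below both for 4, against 22.9%. The 3 strain comparisons share arrays and are not independent of each other.

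**Figure D2:**
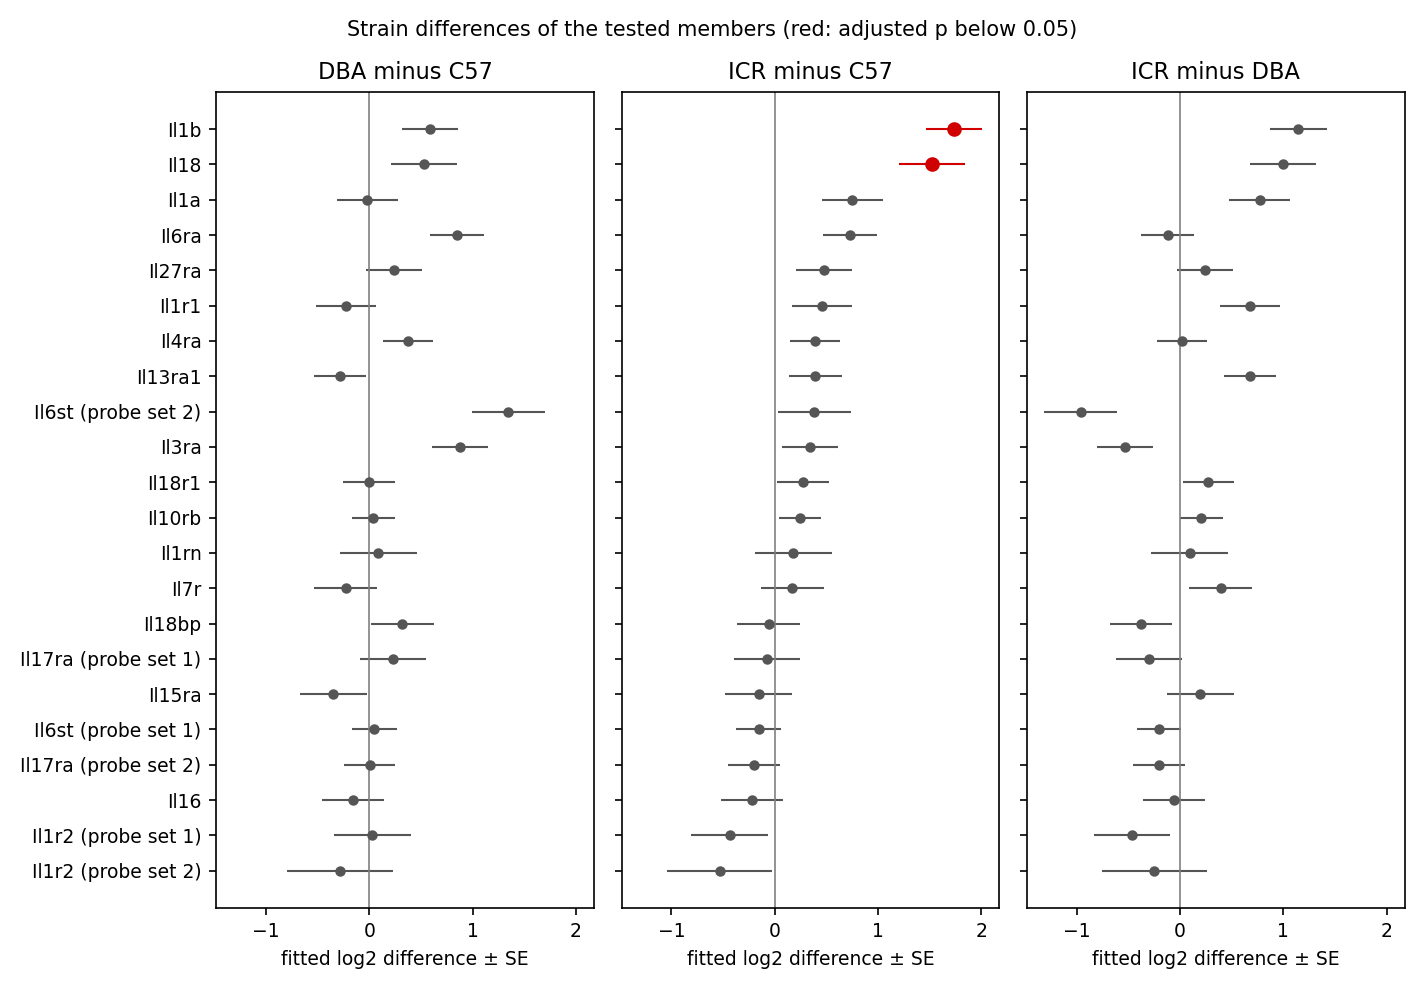
Fitted log2 difference between strains (horizontal axis, bars are the SE) for the 22 tested member probe sets in DBA minus C57, ICR minus C57 and ICR minus DBA, from 2 arrays per strain. The 2 red points are Il1b and Il18 in ICR minus C57, at 1.73 and 1.52.

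The shared smoke effect asked which interleukin genes changed with smoke in all strains, and no member was called. Limma called 0 of 22, where 0.0403% of all tested probe sets were called, and 2 members had an unadjusted p under 0.05, against 1.64% of all. Il1b was one of these: its level was lower on the smoked array of every strain, by log2 -0.56 in C57, -1.13 in DBA and -0.67 in ICR. The mean was -0.79 (SE 0.22, n = 3 pairs, unadjusted p = 0.00661, limma adjusted p = 1.0). Across strains the control and smoked levels overlapped, since the smoked ICR array was above the control arrays of C57 and DBA. Of the other tested members, Il1r2 (probe set 1), Il7r, the Il7 receptor of lymphocytes, and Il13ra1 were also lower in every strain. Il7r had differences of -0.17, -0.55 and -0.25 in C57, DBA and ICR, and Il13ra1 of -0.29, -0.16 and -0.52. Lower values in all 3 strains were found for 4 of 22 members, against 7.77% of all tested probe sets. Higher values in all 3 were found for 1, Il1a at 0.10, 0.004 and 0.08, against 9.86% of all.

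Il1r2, a decoy receptor that binds interleukin 1 without signalling, differed most between smoked and control arrays, in the DBA pair. At probe set 1 its levels were 6.16 and 5.90 in C57, 6.82 and 5.29 in DBA, and 5.73 and 5.45 in ICR. At probe set 2 they were 6.05 and 5.88 in C57, 6.52 and 4.84 in DBA, and 5.03 and 5.84 in ICR. The DBA control array was the highest and the DBA smoked array the lowest of all 6 at both probe sets, while the ICR pair went opposite ways at the 2 probe sets. With Il1b, these were the 3 member probe sets at least 2-fold lower in the DBA pair, where 2.36% of all tested probe sets were. In the DBA pair 0 members were 2-fold higher, where 0.684% of all tested probe sets were. In C57 0 members reached 2-fold either way, where 0.765% of all were higher and 0.443% lower. In ICR 0 members reached it, where 2.79% were higher and 3.69% lower.

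**Figure D3:**
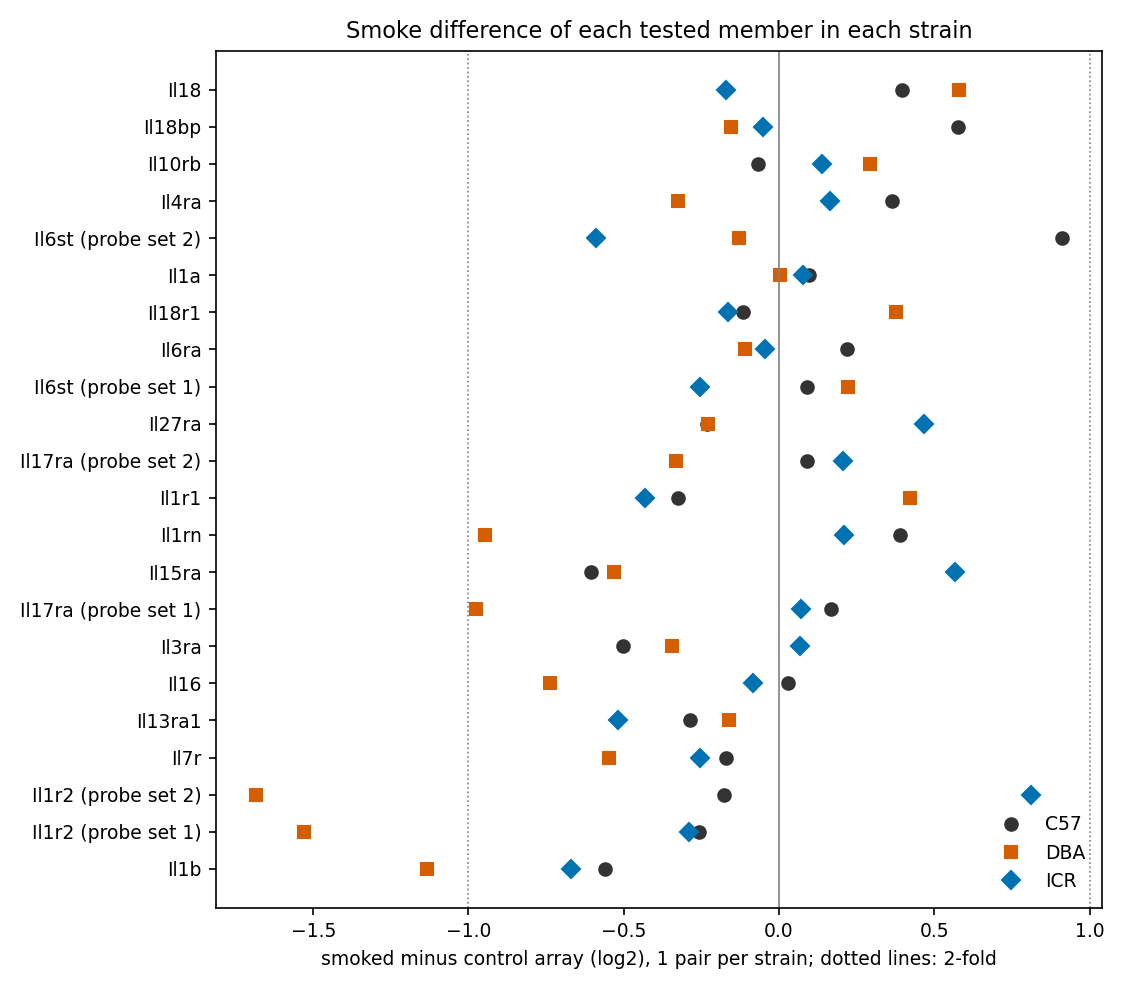
Difference between the smoked and control array (horizontal axis, log2) for the 22 tested member probe sets, with 1 point per strain and dotted lines at 2-fold. The points beyond the lower line are Il1r2 at both probe sets and Il1b, all in DBA.

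Whether the DBA pair differed from the pairs of C57 and ICR was tested with an extra smoke effect for DBA. Limma called 0 of 22 members, where 0.711% of all probe sets were called (0.577% lower), and 4 had an unadjusted p under 0.05, against 3.94% of all. All 4 members were lower: Il1r2 probe set 2 by log2 -2.00 (SE 0.66, limma adjusted p = 0.223) and probe set 1 by -1.26 (SE 0.63, adjusted p = 1.0), Il1rn by -1.25 (SE 0.63) and Il17ra, the Il17 receptor, by -1.09 (SE 0.54) at probe set 1. Without scaling, the Il1r2 values were -1.38 at probe set 2 and -0.62 at probe set 1, each with a limma adjusted p = 0.875. Il1rn, the natural receptor antagonist, had levels of 5.59 and 5.98 in C57, 6.34 and 5.40 in DBA, and 5.86 and 6.07 in ICR. It was thus lower on the smoked array in DBA alone among the 3 pairs. Il17ra at probe set 1 had differences of 0.17, -0.98 and 0.07 in C57, DBA and ICR, and at probe set 2 of 0.09, -0.33 and 0.21. The 2 probe sets had the same sign in each strain.

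Neutrophil markers were also lower on the smoked array of the DBA pair. The summed normalized intensity of the 12 markers was 16648 for the control and 1128 for the smoked mouse of DBA. Their median difference was -3.11, and 6 of 9 tested markers were called lower in the test of the DBA pair. Among these, Ngp was kept through the DBA control array, at a level of 11.15 there and 3.64 to 5.52 on the others. Its call thus uses the array that let it into the test. Over all probe sets this test called 43 lower, against 4 with no filter and 2 with no scaling. Monocyte and macrophage markers summed to 6095 and 3829 in the DBA pair, with 1 of 6 tested called lower. This was Chil3, which differed by log2 -2.63 in the pair, where the list had a median difference of -0.46. No neutrophil marker was at an intensity of 0 on any array, and on the DBA smoked array 2 were below the added constant. The DBA smoked array also stood apart in liver markers, whose sum was 418 for the DBA control and 2930 for the DBA smoked mouse, with 3 of 3 tested called higher in this test. B cell markers summed to 641 and 355 in the same pair, with 0 of 5 tested called. T cell markers summed to 324 and 165 (0 of 2 tested called) and NK cell markers to 234 and 137 (0 of 3). Stratified epithelium markers summed to 444 and 182, with 2 of 4 tested called lower. Il1r2 is itself known as a neutrophil message. On the ICR control array the neutrophil sum was 3518, and Il1r2 read 5.73 and 5.03 at probe sets 1 and 2. The C57 arrays had neutrophil sums of 1186 and 1334 and Il1r2 levels of 5.88 to 6.16. In the C57 and ICR pairs the neutrophil markers had median differences of -0.07 and -0.29. Il1b differed by log2 -0.56 in C57, -1.13 in DBA and -0.67 in ICR. The part of neutrophils and of the other cells and tissues listed here in the Il1r2, Il1b, Il1rn and Il17ra values was not tested.

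**Figure D4:**
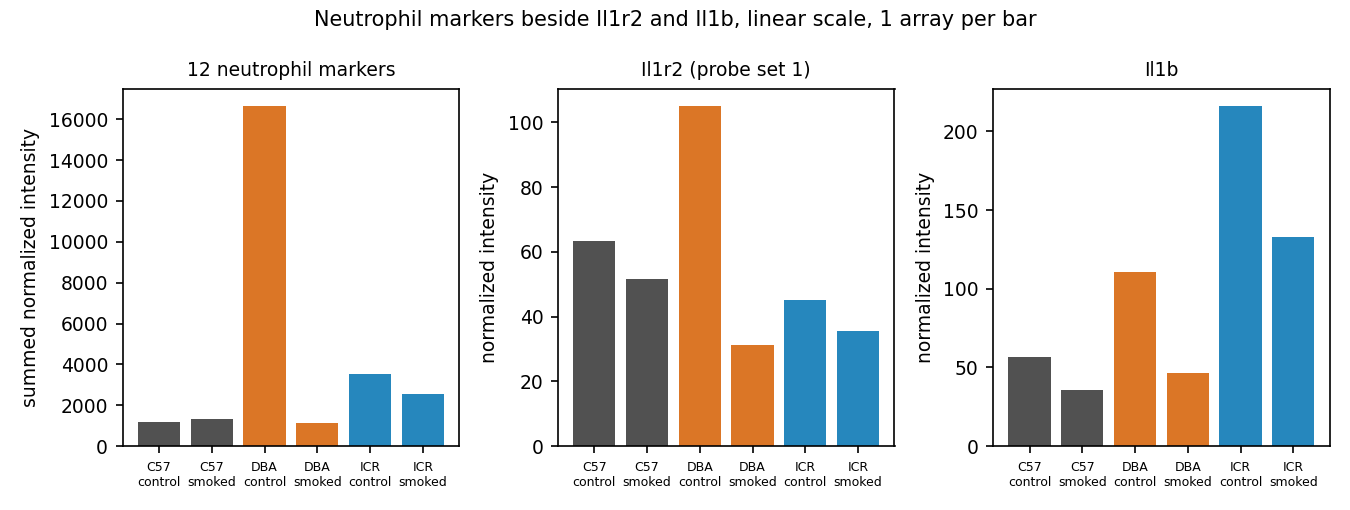
Summed normalized intensity of 12 neutrophil markers, and normalized intensity of Il1r2 and Il1b (vertical axes, linear, starting at 0), on each of the 6 arrays, 1 bar per array. The neutrophil sum is highest on the DBA control array (16648), where Il1r2 is highest too, while Il1b is highest on the ICR control array.

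For the C57 pair limma called 0 members, where 0.134% of all probe sets were called (0.0939% higher), and 1 had an unadjusted p under 0.05, against 3.01% of all. It was Il6st probe set 2, higher by log2 1.27 (SE 0.59), with differences of 0.91, -0.13 and -0.59 in C57, DBA and ICR. Il6st probe set 1 had 0.09, 0.22 and -0.26. For the ICR pair limma called 0 members and 0% of all probe sets, and 1 member had an unadjusted p under 0.05, against 14.3% of all. It was Il15ra, which presents Il15 to T and NK cells, at log2 1.14 (SE 0.31, limma adjusted p = 0.305), with differences of -0.61, -0.53 and 0.57 in C57, DBA and ICR. In these 2 tests, as in that of the DBA pair, 1 pair stands for a strain.

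Other tested receptors had small mean smoke differences, in some because the pairs went both ways. Il10rb, a chain shared by receptors of the Il10 family, had a smoke difference of log2 0.12 (SE 0.17), Il27ra of 0.002 (SE 0.22), Il18r1 of 0.03 (SE 0.20) and Il4ra of 0.07 (SE 0.20). The 3 pairs of Il27ra spread with an SD of 0.40 and those of Il4ra with an SD of 0.35, against 0.20 for Il7r and 0.18 for Il13ra1. Il4ra had a probe set 2, below the filter, which had the sign of the first in 1 of 3 strains. Of the ligand Il16, levels were 6.30 and 6.32 in C57, 6.52 and 5.79 in DBA, and 6.14 and 6.05 in ICR. Over the 53 member probe sets outside the control set, the C57, DBA and ICR pairs had median smoke differences of 0.04, -0.15 and 0.07, against -0.01, 0.02 and 0.01 over all 12422. Il4 had 5 probe sets, 0 of them kept, and in 0 of 3 strains did all 5 share a sign. The 2 Il12rb1 probe sets, also not kept, shared a sign in 2 strains.

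Genes that relay interleukin signals were not called in any of the 7 tests, where 0% to 2.29% of all probe sets were called. At that share few calls would fall in lists of this size. The relay genes were 13 of the interleukin 1 and Toll relay, 3 of interleukin 1 processing, 8 JAK kinases and STAT factors and 10 feedback inhibitors. The 9 tested partner chains and related cytokines outside the naming rule were not called either. Their smoke differences were largest at Ptpn6, a phosphatase that dampens cytokine receptors (log2 -0.52, SE 0.26), Socs2, a feedback inhibitor (0.47, SE 0.23), and Ikbkb, the kinase that releases NF-kB (-0.45, SE 0.22).

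Among known target genes of interleukins, none of 13 genes induced by interleukin 1, 6 or 17 was called for smoke, 1 was called higher in DBA against C57 and the same 1 in ICR against C57. This was Cxcl1, a neutrophil-attracting chemokine, with levels of 3.71 and 4.53 in C57, 6.01 and 6.10 in DBA, and 5.69 and 6.05 in ICR. C57 was below both other strains without overlap, by log2 1.93 for DBA (SE 0.33, limma adjusted p = 0.0206) and 1.74 for ICR (SE 0.33, adjusted p = 0.0348). The deposited Cxcl1 intensity of 5.07 on the C57 control array was below the added constant, so the size of these differences depends on it. Its C57 mean level of 4.12 was under the filter level of 5.34, so it was tested only through DBA and ICR, where it is high. Both comparisons share the C57 arrays. The largest smoke difference of this list was at Cxcl5, another neutrophil-attracting chemokine, at 2.18 in C57, 2.26 in DBA and 0.12 in ICR (mean log2 1.52, SE 0.40, limma adjusted p = 1.0), not called. Of 9 genes induced by Il4 and Il13, 0 were called for smoke. In DBA against C57, 2 were called higher, and in ICR against C57, 1 was called lower. Itln1, an intelectin of goblet cells, was higher in DBA by log2 2.27 (SE 0.37, limma adjusted p = 0.0174), as was Clca1, a goblet cell protein, by 4.17 (SE 0.47, adjusted p = 0.00341). Clca1 was also called lower in ICR than in DBA, by log2 -4.24 (SE 0.47, limma adjusted p = 0.00359). It passed the filter only through DBA, with mean levels of 5.09 in C57 and 5.01 in ICR under the filter level, so these 2 calls use the strain that let it into the test. Tff2, a mucosal trefoil peptide, was lower in ICR by -1.51 (SE 0.30, adjusted p = 0.0393). Il4 and Il13 themselves had no probe set above the filter. In the DBA pair Lcn2 and Chil3, which neutrophils and macrophages also express, were called lower. In the C57 pair the same 2 were called higher against the other strains. Lcn2 had pair differences of 1.36, -2.55 and -0.46 in C57, DBA and ICR, and Chil3 of 1.38, -2.63 and -0.33. The DBA pair thus enters both tests, which are not independent. With no filter, no scaling, median scaling or another variance prior, 0 probe sets were called higher in the C57 test.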

How the data were processed

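Deposited values were used as the authors' processed probe set intensity on a linear scale, for 12488 probe sets on 6 arrays. The sources used here do not give the summary method, software or scaling, and per the labels' protocols the RNA was labelled from an oligo(dT) primer. After adding 8.05 and taking log2, arrays were quantile normalized. Of 12422 probe sets outside the 66 controls, 7453 had mean levels over the 40th percentile and were kept. The 55 members include 2 control probe sets, and 396 probe sets with several symbols were not used. All 45 member symbols matched RefSeq by gene identifier.

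The smoke effect came from limma 3.58.1 (R 4.3.3; lmFit, then eBayes with trend), blocked on strain. Strains were compared in the same fit, with 2 residual degrees of freedom. A strain's own response was an extra smoke effect for that strain, with 1 residual degree of freedom, which assumes that its pair varies like the others. Tests were 2-sided, adjusted by Benjamini-Hochberg over all 7453, and called at an adjusted p below 0.05. A fold is on the scale with the added constant and understates changes of low signals. Lists use the probe set of highest mean for each gene. Summed normalized intensity is the normalized value less the constant, summed over the list.

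The members and lists were chosen with earlier results of these data known. Named were members called in a test, 2-fold different within a pair or between strains, of the same direction in all 3 strains, or with several probe sets, and of the pathway genes those called and those with large shared differences. Other genes were named as examples. The fits were tested on simulated data, where most large changes were recovered. False calls exceeded the nominal rate in each comparison simulated (smoke, the strain comparisons including ICR against C57, and the DBA response), most of all in the DBA response. Nothing in the labels says that arrays came from more than 1 animal per group. The p-values rest on how far smoke differences disagreed between strains, in the strain comparisons too. The spread between animals of a strain was not measured. The number of arrays limits the precision. Figures used matplotlib 3.10.9 (Python 3.11.15).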

Additional observations from a re-analysis of the deposited data

Results flagged for a closer look

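One of the control probe sets, AFFX-MurIL10_at, lies outside the tests and read higher on the smoked array in every strain. This probe set for Il10, an anti-inflammatory cytokine, had deposited intensities, control then smoked, of 2.81 and 13.3 for C57, 7.80 and 27.0 for DBA, and 2.67 and 6.64 for ICR. The mean difference was log2 0.93, with 0.99, 0.84 and 0.96 in C57, DBA and ICR, and it was not tested. Of its 6 readings 4 were below the added constant of 8.05. The other Il10 probe set read below that constant on all 6 arrays, with differences of 0.01, 0.27 and 0.53.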

How the results depend on the processing

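Replicate numbers pair nothing, because each group holds only replicate 1. The smoke fit pairs arrays by strain instead, and without that strain block its count was also 0. The count of 0 members for the shared smoke effect was found under all 12 alternatives, and the counts of 0 for the DBA and C57 responses under all 8. The count of 2 in ICR against C57 was 0 with no filter, with a filter at the 60th percentile and with no scaling, and 0 to 2 with 1 array left out. Il1b was called in 8 of 13 alternatives (log2 1.10 to 1.91, adjusted p = 8.85e-06 to 0.268) and Il18 in 7 of 13 (0.96 to 1.85, adjusted p = 0.00215 to 0.296). Both were called with another pseudocount, median scaling or another variance prior. The stricter filter removed them. In DBA against C57 the count was 0 to 1 with 1 array left out. With no scaling it was 1 of 22 in ICR against DBA (Il6st, lower), where 3.45% of all probe sets were called lower, and 4 of 22 for the ICR response, all lower, where 23.9% of all were. The 3 members at least 2-fold different within a pair became 6 with a pseudocount of 1, 7 with no filter, 0 with the stricter filter, 10 with no scaling, 8 at 1.5-fold and 1 at 3-fold. No named difference changed sign under any alternative that gave it a value. The cause of these shifts was not tested, except that unscaled values carry the median shift between arrays. Signals near the added constant limit what can be said of the ligands.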

Other observations

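Without the filter, 4 further members differed at least 2-fold within a pair, each with readings below the added constant. Il1rap, the accessory chain of the interleukin 1 receptor, differed by log2 -0.86 in C57, 0.11 in DBA and -1.40 in ICR. Il5, the eosinophil growth factor, differed by 1.20, -0.78 and 0.45 in that order. Il17a had differences of 0.04, -0.52 and 1.05, and 1 of the 5 Il4 probe sets of -1.08, 0.17 and 0.56. For none of the 4 did all strains go the same way.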
